A study of Mus musculus with 6 samples.

Results

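Bmi1 knockout (KO) was set against wild type (WT) in haematopoietic stem cells (HSCs), the rare bone marrow cells that renew themselves and maintain blood formation. The comparison rests on 3 of the 6 arrays of the series, those titled as HSC replicates 1 to 3. Each array carried RNA of WT HSCs in green (Cy3) and RNA of Bmi1 KO HSCs in red (Cy5). The other 3 arrays held multipotent progenitors (MPPs), the first descendants of HSCs, of the same genotypes. All mice were C57BL6 and 2 to 3 months old, cells were sorted by FACS, and 10 µg of total RNA was given per sample. The labels call the replicates biological. They name neither the sorting gate, nor the part of Bmi1 that the KO allele lacks, nor whether mice were pooled. They name no Cre driver or promoter. Where the labels do not say that samples came from separate animals, p-values measure only the spread between these samples. No array had the dyes exchanged. An effect of the dye on a probe therefore runs in the same direction as genotype on all HSC arrays, and the dye and genotype cannot be told apart within them. The 3 MPP arrays had the same dye order, and their values are given beside those of HSCs where a probe stands out.

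Bmi1 is a RING finger subunit of Polycomb repressive complex 1 (PRC1). PRC1 ubiquitinates histone H2A and compacts chromatin at developmental genes, together with PRC2, which trimethylates lysine 27 of histone H3. In blood, Bmi1 is known for repressing Cdkn2a, the locus of the cell cycle inhibitor p16Ink4a and of p19Arf, and HSCs lacking Bmi1 are known to lose self-renewal.

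Values are log2 ratios of KO over WT, given for HSC arrays 1, 2 and 3 in that order unless stated otherwise. A positive ratio means a higher KO signal. Channel levels are the log2 signals of each dye after normalization within and between arrays. A spot was well above background when the scanner software marked it so. The median signal was 140 to 200 in green and 379 to 581 in red, and the share of spots above that mark was 76.0% to 80.5% in green and 78.8% to 83.9% in red. After filtering, 29135 features (genes or named transcripts) were tested. Of these, 141 were above the mark in KO on all 3 HSC arrays and in WT on none, and 13 had the reverse. KO was always in the brighter red channel, so dye and genotype cannot be told apart in such contrasts.

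Several known markers of HSCs and MPPs differed between the populations in both genotypes. Slamf1, the CD150 marker of HSCs, was 2.71 log2 units higher in WT HSCs than in WT MPPs and 2.99 units higher in KO HSCs than in KO MPPs. Esam, an adhesion molecule of HSCs, was higher in HSCs by 2.24 in WT and 1.66 in KO. Conversely Flt3, the receptor tyrosine kinase of MPPs, had an HSC minus MPP difference of -3.21 in WT and -2.66 in KO. That difference was -4.51 and -3.82 for Cd48, -1.14 and -1.29 for Cd34, and -2.82 and -3.47 for Dntt, the terminal transferase of early lymphoid cells. For these 6 genes the 3 HSC levels did not overlap the 3 MPP levels in either dye. The share of all features with levels so separated was not computed, so this count is only a description. Ly6a, which encodes Sca-1, overlapped in both dyes. Kit, Procr and Il7r, the receptor of lymphoid progenitors, overlapped in WT but not in KO.

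No gene passed the test of KO against WT in HSCs. Of 29135 features, 0 (0%) had an adjusted p under 0.05 in limma with Benjamini-Hochberg adjustment, and the smallest adjusted p was 0.570. At an unadjusted p under 0.05 there were 2156 features (7.4%), of which 1151 (3.95% of all features) were higher in KO and 1005 (3.45%) lower. All 3 arrays gave a positive ratio for 3871 features (13.3%) and a negative ratio for 3962 (13.6%). The mean ratio was positive for 50.2% of features. Every count of a gene group given further on is to be read against these background shares. The groups were chosen with earlier results of these data known, so their counts are only descriptions. For a single gene, an exact test that turns the signs of the 3 ratios has a smallest two-sided p of 0.25, so none could pass. What follows are measured values and their spread, not changes that passed a test. The list members named below include those of smallest p in these data, so their ratios do not stand for their lists. The median of a gene list is likewise a description: for 27 of the 44 lists it changed sign when 1 of the HSC arrays was left out.

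The 3 arrays shared almost none of their ratios. Across features, the ratios of arrays 1 and 2 correlated with r = -0.0217, those of arrays 1 and 3 with r = -0.0764, and those of arrays 2 and 3 with r = 0.0855. The sign was shared by 49.2%, 47.5% and 57.1% of features for the same pairs. These correlations run over features of shared samples and carry no test. More than a 2-fold difference in either direction was seen for 15.0% of features on array 1, 29.8% on array 2 and 28.5% on array 3. Arrays 2 and 3 thus had ratios of wider spread, with SDs over features of 1.26 and 1.14 against 0.763 on array 1.

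**Figure D1:**
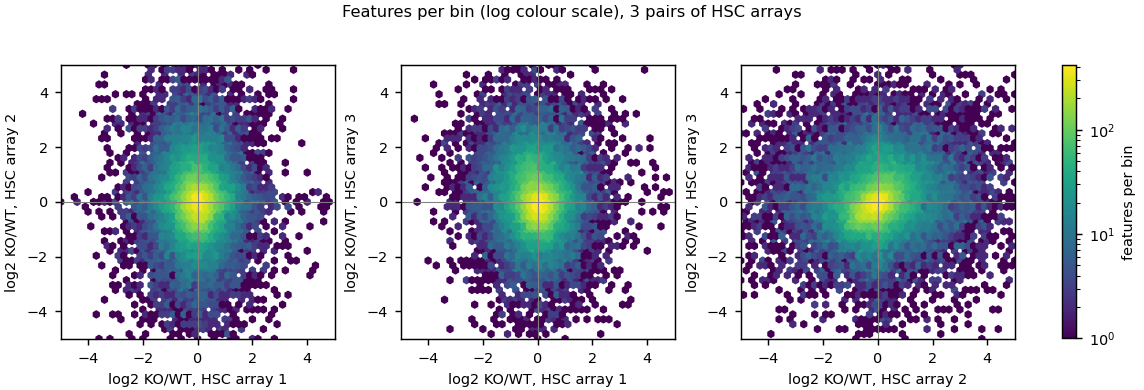
Log2 ratios of KO over WT for the 29135 features, plotted for each pair of HSC arrays. Colour gives the number of features per hexagon on a log scale, and features beyond 5 log2 units are not shown. The clouds follow no diagonal (r between -0.0764 and 0.0855), and arrays 2 and 3 spread more widely than array 1.

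Spots and probes repeated far better within an array than ratios did between arrays. For 399 probes printed at 10 spots each, the median SD of the ratio over the spots of an array was 0.0989, 0.109 and 0.102. The same probes had a median SD of 0.670 between the 3 arrays. For 8369 genes measured by 2 probes with no shared bases, the ratios of the 2 probes correlated at 0.264, 0.228 and 0.301 within an array. Set against each other across arrays, 2 probes of a gene (8789 genes, some with overlapping probes) correlated at -0.0335, -0.0541 and 0.0273. The ratio on an array thus carried a part that both probes of a gene shared, and this part did not recur on the other arrays. The median SD between arrays was 0.635 over all features in HSCs and 0.517 in MPPs.

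Bmi1 itself was measured by 2 probes. The brighter probe (A_55_P2170335, chromosome 2, 18607531 to 18607590, mm9) gave ratios of -0.39, -2.42 and -0.50, a mean of -1.11 ± 1.14 (SD, n = 3) and an adjusted p of 0.664. It was lower in KO on all 3 arrays, by far the most on array 2, and without that array the mean was -0.45. Its KO levels were 9.38, 7.38 and 10.56 and its WT levels 9.77, 9.81 and 11.06, so KO RNA kept a signal well above background on every array. The other probe (A_52_P39157, 18607987 to 18608046) gave 0.11, -1.66 and 1.36, a mean of -0.06 ± 1.52. Both probes had their lowest ratio on array 2 and differed in sign on arrays 1 and 3. In MPPs the brighter probe gave 0.23, -0.69 and 0.48, a mean of 0.01. What the KO allele lacks is not stated, so these probes do not test the labels. The genotype is taken from the labels.

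Cdkn2a did not pass the test in KO HSCs. Its brighter probe (chromosome 4, 88920405 to 88920464, mm9) gave 0.31, -0.32 and -2.82, a mean of -0.95 ± 1.65 (SD, n = 3) with an adjusted p of 0.719. KO levels of this probe were flat, at 6.75, 6.50 and 6.99. The WT level was 6.45 and 6.83 on arrays 1 and 2 but 9.81 on array 3, so the negative ratio lay in the WT sample of 1 array, and without array 3 the mean was -0.01. A second Cdkn2a probe (88920543 to 88920602) gave 0.33, 0.86 and -2.20, again with the high WT level on array 3. Its WT levels were 6.29, 6.24 and 7.97. Either probe was well above background on only 1 or 2 of 3 arrays in each channel. In MPPs the brighter probe gave 1.74, 0.61 and 1.19, all above the HSC ratios, and the HSC minus MPP difference of -2.13 had an adjusted p of 0.964 in limma.

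Cdkn2b, the neighbouring gene of p15Ink4b (chromosome 4, 88952720 to 88952779, mm9), gave 2.88, -0.20 and -0.32, a mean of 0.79 ± 1.81 and an adjusted p of 0.751. Only the KO sample of array 1 had a Cdkn2b signal well above background, with a level of 9.33 against 6.21 and 6.19 on the other arrays. WT signal was not well above background on any array. Without array 1 the mean turned to -0.26. A dimmer probe of the gene, which did not pass the filter, was also highest on array 1 (0.94, 0.16 and -0.05).

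The other cyclin-dependent kinase (CDK) inhibitors, which hold cells in G1, also differed between arrays. Of all 7 genes, 6 had a positive ratio on array 1, 3 on array 2 and 1 on array 3. Cdkn1a, the p53 target that encodes p21, gave 3.17, -0.92 and -1.16. Cdkn2d, which encodes p19Ink4d, gave 0.94, -3.34 and -3.87. Both were thus higher in KO on array 1 and lower on arrays 2 and 3. Cdkn1b, which encodes p27, gave -0.44, 2.46 and -0.21. Cdkn1c, the imprinted gene of p57 that marks quiescent HSCs, gave 0.51, 0.83 and -0.28. Cdkn2c, which encodes p18Ink4c, was the only one of the 7 with a positive ratio on all 3 arrays (0.89, 0.23 and 1.17). Its WT signal was below the background mark on all 3 arrays, which gives at least 1.54-fold higher in KO. Here "at least" sets KO against the higher of the WT signal itself and the lowest signal well above background on each array. It is a mean over the 3 arrays and not a tested limit. Over the 7 genes the medians of the arrays were 0.89, -0.20 and -0.32.

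Genes of the p53 pathway, which answers to DNA damage and to p19Arf, had no common direction, with a median of 0.01 over 20 measured of 24 listed. Trp53 gave -0.60, -0.15 and 1.80 and its inhibitor Mdm2 gave 0.18, -0.87 and -0.08. Gadd45a, a stress-induced growth arrest gene, gave 0.95, 4.91 and 0.26. Ei24, a p53-induced gene, gave 0.39, 2.78 and 1.01. Ckap2, a spindle-associated protein, gave -1.94, -5.63 and -0.82. These 3 were the only members with the same sign on all arrays, 2 higher and 1 lower, and the extreme value was on array 2 each time.

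Among the subunits of PRC1, the paralogues of Bmi1 went different ways. Pcgf2 (Mel18), the closest paralogue, which can take the place of Bmi1 in canonical PRC1, gave 0.63, 1.79 and 2.09, a mean of 1.50 ± 0.77 (SD, n = 3). A second Pcgf2 probe had a mean of -0.27, so the probes of this gene disagree. Pcgf1, which builds the variant complex with Kdm2b and Bcor, gave -1.59, -3.60 and -1.11, a mean of -2.10 ± 1.32. On the MPP arrays the mean was -0.12 for Pcgf2 and 0.69 for Pcgf1. Pcgf5 was slightly lower on each array (-0.64, -0.11 and -0.56), while Pcgf3 (-0.68, -0.78 and 1.01) and Pcgf6 (-0.27, 1.06 and -0.22) were mixed.

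The chromobox proteins read the H3K27me3 mark for canonical PRC1. Cbx2 gave -0.82, -1.28 and -0.82 and was lower on all arrays within a narrow range. Cbx7, the main chromobox protein of HSCs, gave -0.29, -1.61 and -0.01, and its second probe had a mean of -0.56. Cbx6 changed sign between arrays (-0.99, 1.16 and -0.42). Of the Polyhomeotic proteins, which polymerise PRC1, Phc1 gave -0.96, -0.13 and -1.24 and Phc3 gave -0.05, -0.08 and -1.82, whereas Phc2 gave 0.07, 1.51 and -0.07. The other probes of Phc2 and Phc3 included values of the opposite sign.

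The catalytic subunits also changed sign between arrays. Ring1 gave 0.48, -4.01 and 3.31 and Rnf2 (Ring1b) gave -0.33, 1.70 and -0.38. In the variant complexes, L3mbtl2 was higher on all arrays (0.27, 1.51 and 1.60). Rybp (-0.94, 1.57 and 1.74), Yaf2 (-0.48, 1.81 and 1.60) and E2f6 (-2.88, 3.12 and 2.52) were lower on array 1 and higher on arrays 2 and 3. For Yaf2 a second probe had a mean of -1.87. Kdm2b (-0.57, 0.83 and -0.25) and Bcor (-0.07, 0.88 and 0.67) stayed within 1 log2 unit of equality, and Usp7 (0.43, -5.14 and 2.41), a deubiquitinase of the complex, ranged most widely. Over the 25 measured of 26 listed subunits, 7 (28%, Bmi1 included) were lower on all 3 arrays against 13.6% of all features, 2 were higher, and the median was -0.07.

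**Figure D2:**
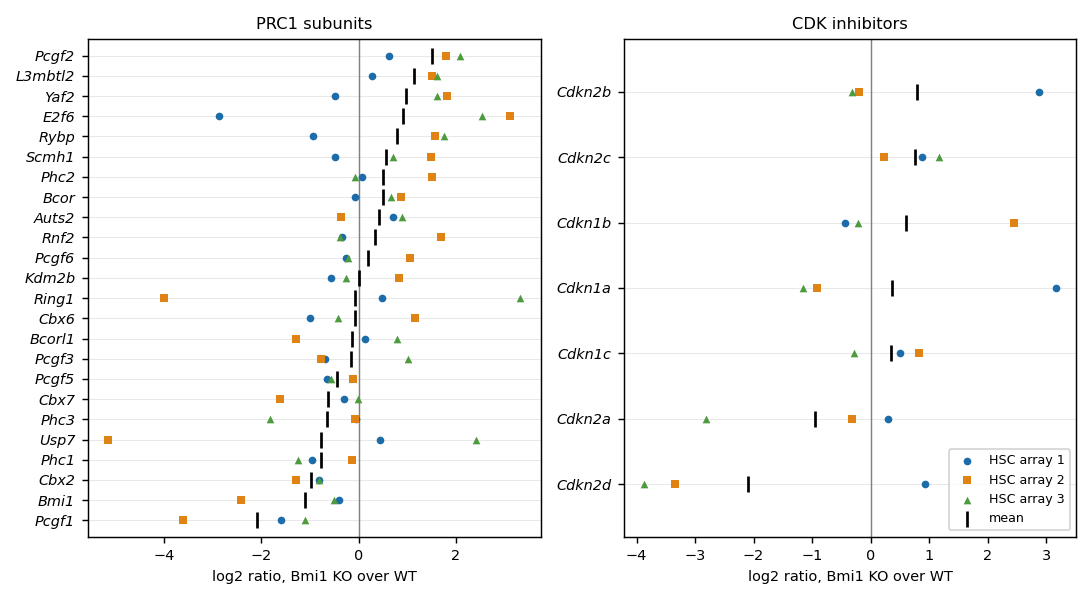
Log2 ratios of KO over WT for 24 of the 25 measured PRC1 subunits and the 7 CDK inhibitors, ordered by mean. Each gene has a point per HSC array and a black bar at the mean of the 3 arrays. For most genes the points lie on both sides of 0, and Cbx2 is among the few with all 3 close together (-0.82, -1.28 and -0.82).

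PRC2, which lays down the mark that canonical PRC1 reads, split by array. Of its 12 subunits 1 had a positive ratio on array 1, against 9 on array 2 and 8 on array 3. The array medians were -0.66, 0.34 and 0.98. Suz12 gave -0.93, 0.64 and 1.52 and Eed gave -0.27, 0.26 and 1.39. Ezh2, the methyltransferase, gave -1.15, 0.77 and -0.12, and Ezh1, the methyltransferase of resting cells, -0.93, -0.38 and -0.04. No subunit was higher on all arrays, and Ezh1 and Epop were lower on all 3.

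Remodellers and enzymes that oppose Polycomb included the gene with the smallest p of all. Phf10 encodes BAF45A, a subunit of the PBAF remodelling complex (probe on chromosome 17, 15082034 to 15082093, mm9). It gave 2.26, 2.28 and 2.23, a mean of 2.26 ± 0.03 (SD, n = 3) or 4.78-fold, with an adjusted p of 0.570. WT levels were 8.23, 7.35 and 8.12 in green and KO levels 10.49, 9.63 and 10.34 in red. The gene was chosen for its small p, so the gap between these levels is no finding. On the MPP arrays, with the same dyes, this probe gave -0.43, -0.36 and -0.87. The gene was measured by 1 probe. Other PBAF subunits did not follow it: Arid2 gave -1.24, -0.57 and 2.58, and Pbrm1 gave 0.41, 0.19 and 1.21. Smarca4, the ATPase, gave -0.72, 2.17 and 0.80. Of 27 BAF and PBAF subunits, 7 were higher on all arrays (25.9%, against 13.3% of features), and 3 were lower, with a median of 0.20. The list holds Phf10 and was chosen with earlier results of these data known, so its count is only a description.

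Among trithorax genes, Ash2l, a core subunit of H3K4 methyltransferases, gave 0.19, 3.46 and 2.16, and its other probe had a mean of 0.92. Kdm6a, which removes the H3K27 methyl marks, gave 0.08, 1.10 and 2.87. Kdm6b, the other such enzyme, gave -0.14, 0.64 and -1.85. Setd1a gave -0.46, -4.08 and -0.37. The median of the 21 measured genes was 0.06.

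Genes that Polycomb is known to silence had medians near 0. Hox genes, the classical targets, had 26 measured of 39 listed, with a median of 0.14. Only Hoxc10 was higher on all arrays, and Hoxa3, Hoxa13, Hoxd10 and Hoxc12 were lower on all arrays. Hoxa9, expressed in HSCs, gave -1.71, 4.43 and 0.82, and Hoxb4 gave 0.27, -2.05 and 0.66. Hoxa3 gave -0.66, -1.03 and -0.50. Of the developmental transcription factors of other lineages, 30 of 54 passed the filter, so the list is read only for those bright enough. Of these, 7 had a positive mean, 8 (26.7%) were lower on all 3 arrays and 2 (6.67%) were higher, and the median was -0.17. Sox1, a neural factor, gave -1.11, -1.68 and -0.87, with a mean of -0.24 for its second probe. Zic1 gave -0.26, -0.44 and -0.64 and Tbx5 gave -0.67, -0.63 and -0.26. The 2 higher ones were Eomes and Pax9. Of the 30, 21 were well above background on all arrays in both channels.

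Lin28b, the fetal RNA-binding protein that blocks let-7 maturation and specifies fetal HSC properties, gave 0.80, 3.50 and 3.42. Its mean was 2.58 ± 1.54 (SD, n = 3), and the MPP mean was 3.52. In WT, 1 of 3 HSC arrays had a signal above the background mark, and in KO, always in the brighter red channel, all 3 did. Other genes of the fetal programme had ratios of both signs. Hmga2 gave 1.16, 3.09 and -1.72, Igf2bp2 gave 0.63, 2.11 and -2.87, and Igf2bp3 gave 1.11, -3.05 and -2.83. For this list of 12 measured genes the array medians were 0.42, 1.22 and -0.49. Lin28b alone was higher on every array, and Lin28a (-0.30, -0.04 and -0.59) and Hbb-bh1, an embryonic globin (-0.65, -0.18 and -0.25), were lower on every array.

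Imprinted genes, several of which keep HSCs quiescent, held further high ratios. Zdbf2, a paternally expressed gene (probe spanning chromosome 1, 63324519 to 63327361, mm9), gave 2.18, 1.62 and 2.08, a mean of 1.96 ± 0.30 (SD, n = 3) with an adjusted p of 0.652. In WT, 2 of 3 arrays had a signal above the background mark. A dimmer Zdbf2 probe, which did not pass the filter, gave 0.82, 0.06 and 0.02. Peg10, a retrotransposon-derived gene, gave 3.59, 4.85 and 1.35, but its second probe had a mean of -0.02. H19 gave -0.10, 0.78 and -2.95, and all 5 of its other probes also had negative means, from -2.37 to -0.34. Igf2 gave -0.16, 1.95 and -0.68, and Dlk1 gave 1.48, 1.24 and -3.65. Over 21 measured genes the median was -0.03, and 4 were higher and 3 lower on all arrays.

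Around Bmi1 on chromosome 2, Commd3, its immediate neighbour, gave -1.69, -0.15 and 1.68. Pip4k2a, a lipid kinase gene nearby, gave -0.64, -1.75 and -1.76. Gad2 (0.95, 0.32 and 0.11) and Dnajc1 (0.28, 0.03 and 0.53) were higher on each array by less than 1 log2 unit. So was Spag6l, which the list also held but whose probe lies on chromosome 16.

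Among surface markers of HSCs, Kit gave 0.22, -0.00 and -0.54, and Slamf1 gave 0.13, 0.73 and -0.44, both within 1 log2 unit of equality on every array. Procr, the EPCR marker, gave -0.24, 1.90 and 0.60. Over 26 measured surface markers the median was -0.17, with 4 higher and 5 lower on all arrays. Vldlr, a lipoprotein receptor enriched in HSCs, was the surface marker with the highest mean. Its ratios were 2.44, 3.43 and 0.94, and a second probe with no shared bases gave 1.31, 0.97 and 2.58. WT signal passed the background mark on 2 arrays for the first probe and on 1 array for the second, and the adjusted p was 0.664. Vwf, which marks platelet-biased HSCs, gave 1.34, 2.44 and 0.63, but its second probe had a mean of -0.83. Angpt1, an HSC-produced ligand of Tek, gave 0.01, 1.22 and 1.32, and Tek itself was among the 5 lower markers.

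Transcription factors of stem cells had more members lower than higher on all arrays. Of 27 measured, 6 (22.2%) were lower on all arrays against 13.6% of all features, and 1 was higher. Prdm16, a factor required to maintain HSCs, gave -3.28, -1.76 and -1.39, a mean of -2.14 ± 1.00 (SD, n = 3). Lyl1 gave -1.66, -0.99 and -0.93, and its relative Tal1 gave -1.05, -1.79 and -0.34. Runx1 gave -0.64, -1.98 and -0.33, with a second probe at a mean of -0.77. Gfi1b gave -1.26, -0.28 and -0.39. On the MPP arrays the means were -0.98 for Prdm16, 0.04 for Lyl1 and -0.38 for Tal1. Mecom (0.19, -0.56 and -1.79), Meis1 (0.02, 0.66 and -0.47), Gata2 (-0.83, 0.25 and -0.35) and Erg (-0.72, 1.24 and 1.12) changed sign between arrays. The median of the list was -0.05, and it was 0.05 without array 1. On the MPP arrays the list's median was -0.38.

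Markers of other blood cells that a gate could hold were examined as whole lists. In bulk RNA, fewer cells of a type and less RNA per cell cannot be told apart. Basophil, mast cell and eosinophil genes had a median of 0.47 over 14 measured of 15 listed. The array medians were 0.11, 0.03 and 0.92, with 12, 8 and 11 of the 14 ratios positive. On all 3 arrays 7 of them (50%, against 13.3% of all features) were higher in KO and 1 was lower. Of the 14, 8 were well above background on all arrays in both channels. Mcpt8, a basophil protease, gave 0.01, 3.97 and 3.42. Cpa3, carboxypeptidase A3 of mast cells, gave 0.03, 1.93 and 0.88. For both, array 1 was near equality and array 2 highest. Over the list, the mean level ranged from 7.78 to 9.35 in WT and from 7.90 to 10.48 in KO. Without array 3 the list's median was 0.10. The part of these cells in the other ratios was not tested. On the MPP arrays the list's median was -0.38.

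Monocyte genes had a median of 0.26, with 5 of 15 higher on all arrays, among them Ccl9 (0.93, 0.09 and 3.20) and F13a1 (0.43, 0.02 and 4.92). F13a1, coagulation factor XIII of monocytes, had a second probe with a mean of 1.76, and both values rest on array 3. The mean level of the monocyte list lay between 9.55 and 9.56 in WT and between 9.36 and 10.40 in KO, and Csf1r, its defining receptor, gave 0.09, -0.35 and 0.20. Neutrophil granule genes had 0 of 14 with the same sign on all arrays, and array medians of 0.06, 0.17 and 0.08, with 7, 8 and 8 of the 14 positive. Elane gave -0.50, 2.90 and 0.38, Mpo gave -0.76, 3.51 and 0.30, and Prtn3 gave -1.36, 1.78 and 2.52, so these 3 members were negative on array 1 and positive on arrays 2 and 3.

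Erythroid genes differed from array to array. Klf1, the erythroid master factor, gave -4.92, 0.01 and -6.61 and was well above background on 2 of 3 arrays in each channel. Gata1 was close to equality (-0.01, 0.09 and 0.27). Hba-a1, an alpha globin, gave -1.13, 4.73 and -2.95. Among platelet genes Pf4 gave -1.07, -3.38 and 0.40 and Gp1ba gave -1.06, -3.16 and 0.71, so both had their lowest ratio on array 2. Selp gave 3.49, 4.03 and -1.52. The list medians were 0.01 for erythroid and 0.09 for platelet genes.

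B lineage genes, whose mean ratios in MPPs had a median of 2.36, had a median of 0.10 in HSCs. Ebf1 gave 0.58, -0.11 and 1.93, Pax5 gave 0.22, -0.30 and -0.30, and Igll1 gave -0.33, -0.06 and 1.27. Cd72, a B cell inhibitory receptor, was lower on all arrays (-0.32, -1.90 and -1.39), as was its other probe, which shares 49 bases with the first. T and NK genes had a median of -0.15, and stroma and endothelium genes one of -0.12. The mean levels of these lists stayed within 0.5 log2 units over all HSC samples of a dye.

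Sex was not given in the labels, and the sex-linked genes had no common sign. Xist gave -1.23, -0.88 and 0.21. The Y-linked Uty was higher in KO on all arrays (1.42, 0.82 and 1.16), while Ddx3y gave -0.21, -1.96 and 1.24, Kdm5d gave -0.84, 3.67 and -3.20, and Eif2s3y gave 2.306, -3.002 and 0.399. On each array, Y-linked genes of the same RNA samples thus had ratios of opposite sign.

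Immediate early genes, whose transcription starts at once after a stimulus and needs no new protein, had the largest contrast between arrays. Of 27 genes, 23 had a positive ratio on array 1 and 22 on array 2, but only 5 on array 3. The array medians were 0.79, 1.30 and -0.67, and the median of the means was 0.44. Without array 3 it was 1.01, and without array 1 or array 2 it was 0.33 or 0.25. On all 3 arrays 5 genes (18.5%) were higher and 1 was lower, against 13.3% and 13.6% of all features.

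Upstream sequences are shown for members of this group whose promoters held an exact match to a motif of stimulus-induced transcription. The sequences are the 200 bases before the RefSeq transcription start (GRCm38.p6), 5′ to 3′ on the gene's strand, and capitals mark the motif. The CArG box, bound by serum response factor, is in Egr2 (chr10:67537366-67537565, plus strand), Zfp36 (chr7:28379229-28379428, minus strand) and Srf itself (chr17:46556163-46556362, minus strand). The cAMP response element, TGACGTCA, is in Btg2 (chr1:134079156-134079355, minus strand) and Dusp1 (chr17:26508473-26508672, minus strand).
Egr2: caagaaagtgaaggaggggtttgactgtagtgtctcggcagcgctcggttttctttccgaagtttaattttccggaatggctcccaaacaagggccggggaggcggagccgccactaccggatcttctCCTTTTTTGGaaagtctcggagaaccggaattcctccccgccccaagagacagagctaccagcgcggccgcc
Zfp36: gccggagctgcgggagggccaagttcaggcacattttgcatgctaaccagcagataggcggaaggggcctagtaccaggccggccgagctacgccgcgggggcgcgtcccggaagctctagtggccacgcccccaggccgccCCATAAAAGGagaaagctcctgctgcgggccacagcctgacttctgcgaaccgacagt
Srf: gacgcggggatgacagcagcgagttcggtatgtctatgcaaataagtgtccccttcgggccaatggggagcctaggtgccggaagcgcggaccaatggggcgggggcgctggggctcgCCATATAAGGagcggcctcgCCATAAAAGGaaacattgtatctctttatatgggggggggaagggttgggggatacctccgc
Btg2: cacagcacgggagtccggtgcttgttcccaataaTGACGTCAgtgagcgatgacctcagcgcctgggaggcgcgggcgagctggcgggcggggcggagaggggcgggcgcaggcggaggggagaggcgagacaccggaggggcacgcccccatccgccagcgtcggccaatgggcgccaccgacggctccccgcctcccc
Dusp1: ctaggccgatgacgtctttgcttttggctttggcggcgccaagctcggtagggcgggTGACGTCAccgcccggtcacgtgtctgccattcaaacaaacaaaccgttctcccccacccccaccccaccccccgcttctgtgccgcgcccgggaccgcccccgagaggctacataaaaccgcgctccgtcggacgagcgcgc

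With both strands searched, the CArG box lay in 6 of the 28 promoter windows (21.4%) of the 22 measured immediate early genes that have one in the table, those of 3 genes, and in 1.18% of all 32851 windows of this length. The cAMP response element lay in 3 of the 28 windows (10.7%), Maff being the third gene, and in 1.47% of all windows. A match is a description of these letters and not a shown site.

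The 5 genes with CArG or cAMP motifs shown above did not share an order. Egr2, a zinc finger factor, gave 1.23, 2.46 and 1.59, a mean of 1.76 ± 0.63 (SD, n = 3). It was the most even of the strongly positive members. Zfp36, which destabilises AU-rich mRNAs, gave 0.46, 1.19 and -0.34. Dusp1, a phosphatase of MAP kinases, gave 0.60, 1.30 and -0.57, and Btg2, an antiproliferative gene, gave 1.01, 0.87 and -1.62. Srf gave 0.43, -0.26 and -1.51. All but Egr2 were negative on array 3.

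Of the AP-1 subunits, some were positive on all arrays and others turned negative on array 3. Fos gave 0.65, 2.36 and 0.85 and Jun gave 0.54, 2.70 and 0.25, both positive throughout. Fosb gave 1.91, 3.86 and -1.32, Jund gave 0.76, 1.88 and -1.77, and Fosl2 gave 2.12, -0.22 and -0.83. Junb, at -0.50, -0.20 and -1.52, was the only member lower on every array. Atf3, the stress-induced partner of Jun, had the widest ratios of the group, at 4.53, 6.42 and -0.32. Its mean of 3.55 ± 3.48 thus rests on arrays 1 and 2. Fosl1 gave -0.65, 2.98 and -2.89, and Maff gave -0.24, 2.16 and -1.51.

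Most Kruppel-like, Egr and Nr4a factors were also negative on array 3. Klf6 gave 2.17, 3.11 and -0.31, Klf2, which holds lymphocytes quiescent, gave 1.83, 2.52 and -0.66, and Klf4 gave 1.28, 0.74 and -0.90. Egr3 gave 3.13, 2.96 and -1.44, while Egr1 gave 0.05, 1.56 and -0.01. The orphan nuclear receptors Nr4a1 (0.84, 0.28 and -0.34), Nr4a2 (2.49, 0.23 and -0.67) and Nr4a3 (3.06, -0.88 and -1.55) were highest on array 1. Dusp2 gave 1.74, 2.53 and 0.04. Ier3 was even at 0.33, 0.65 and 0.57, whereas Ier2 gave 0.79, 0.51 and -0.43, Ier5 gave -0.17, 0.22 and -1.73, and Myc gave 0.12, -0.65 and -0.99. On the MPP arrays the median of the list was 0.49, and the means of Fos, Klf6 and Atf3 were 1.36, 1.67 and 2.91.

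**Figure D3:**
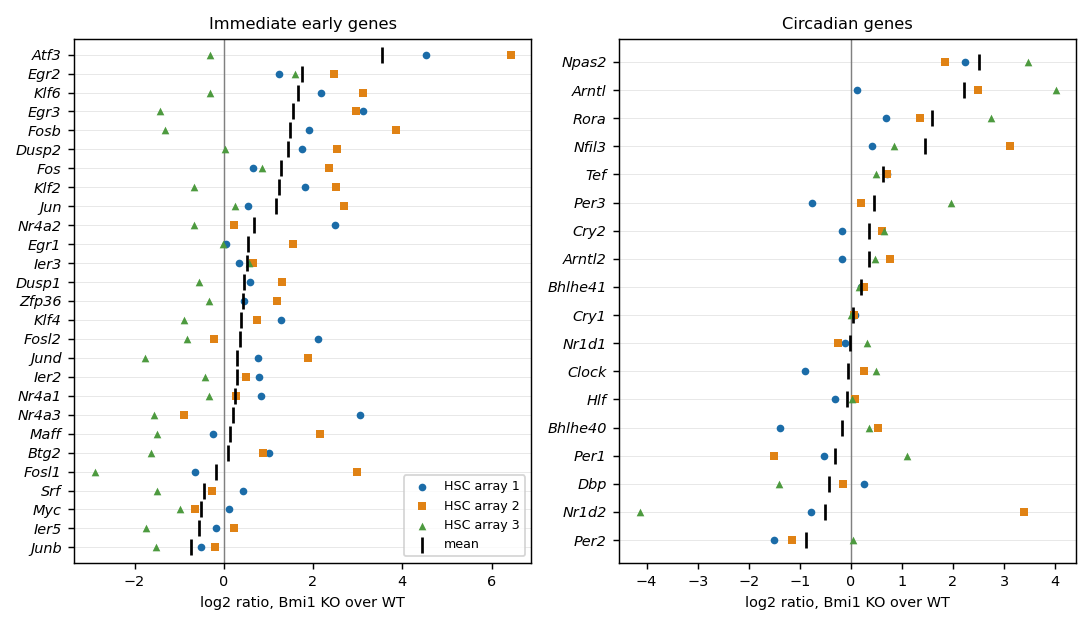
Log2 ratios of KO over WT for the 27 immediate early genes and 18 of the 19 measured circadian genes, ordered by mean. Points are the 3 HSC arrays and black bars their mean. For immediate early genes the points of array 3 lie left of the other arrays for most genes, with 5 of 27 above 0. For circadian genes Npas2 has all 3 points above 1.

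Circadian genes, which drive daily rhythms of transcription, had 19 measured members. Of these, 8 (42.1%) were higher on all 3 arrays and 0 were lower, against 13.3% and 13.6% of features. The list was chosen with earlier results of these data known, so its count is only a description. Npas2, a paralogue of Clock that pairs with Bmal1 (probe on chromosome 1, 39418941 to 39419000, mm9), gave 2.23, 1.85 and 3.47. The mean was 2.52 ± 0.85 (SD, n = 3) or 5.72-fold, with an adjusted p of 0.652. WT levels of 7.05, 8.90 and 7.23 lay below KO levels of 9.29, 10.74 and 10.70, and the MPP ratios were 0.38, 0.15 and -0.06. Npas2 is among the genes chosen for small p, so the gap between its levels is no finding. Arntl, which encodes Bmal1, gave 0.13, 2.50 and 4.01, with a WT signal well above background on 1 of 3 arrays. Rora, a nuclear receptor that binds the RORE element, gave 0.69, 1.35 and 2.75, and a second probe had a mean of 0.83. Nfil3, a bZIP repressor, gave 0.41, 3.11 and 0.85.

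Among repressors of the clock, the period genes changed sign between arrays, and the cryptochromes stayed within 1 log2 unit of equality. Per2 gave -1.50, -1.15 and 0.05, Per1 gave -0.52, -1.51 and 1.09, and Per3 gave -0.76, 0.19 and 1.95. Cry1 gave 0.08, 0.06 and 0.00 and Cry2 gave -0.17, 0.60 and 0.64. Clock itself gave -0.91, 0.25 and 0.49. Nr1d1, a repressor of Arntl, gave -0.12, -0.24 and 0.31, and Nr1d2 gave -0.78, 3.38 and -4.13. The output factors Tef (0.70, 0.70 and 0.49) and Bhlhe41 (0.19, 0.25 and 0.16) were higher by small and even amounts. Dbp gave 0.25, -0.15 and -1.42, and Hlf, also an HSC factor, gave -0.32, 0.08 and 0.02. The median of the list was 0.20, with -0.12 on array 1, 0.53 on array 2 and 0.49 on array 3. On the MPP arrays it was 0.23.

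Upstream sequences of 3 circadian members are printed because their windows held a clock motif. Each again covers 200 bases before the start in GRCm38.p6. Nfil3 (chr13:52981040-52981239, minus strand) held the RORE core TAGGTCA on the opposite strand. Tef (chr15:81802473-81802672, plus strand) and Bhlhe41 (chr6:145865421-145865620, minus strand) held the E-box CACGTG, bound by Clock, Npas2 and Bmal1 pairs.
Nfil3: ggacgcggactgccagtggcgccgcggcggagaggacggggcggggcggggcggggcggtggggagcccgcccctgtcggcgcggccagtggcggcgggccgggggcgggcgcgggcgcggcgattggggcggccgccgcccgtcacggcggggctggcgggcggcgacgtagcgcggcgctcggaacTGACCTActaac
Tef: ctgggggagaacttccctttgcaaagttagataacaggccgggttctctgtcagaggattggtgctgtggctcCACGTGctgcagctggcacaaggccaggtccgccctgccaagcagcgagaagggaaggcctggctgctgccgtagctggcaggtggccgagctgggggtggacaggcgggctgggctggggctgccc
Bhlhe41: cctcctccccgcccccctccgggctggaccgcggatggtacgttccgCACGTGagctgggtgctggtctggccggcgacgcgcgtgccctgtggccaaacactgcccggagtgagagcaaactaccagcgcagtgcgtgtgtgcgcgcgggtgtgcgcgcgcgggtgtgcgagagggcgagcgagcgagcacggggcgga

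The E-box lay in 5 of the 21 windows (23.8%) of the 16 circadian genes with a promoter in the table, in 6 of the 28 windows (21.4%) of immediate early genes, and in 5.26% of all windows. The RORE core lay in 1 of the 21 circadian windows (4.76%) and in 1.78% of all windows.

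Genes of protein synthesis and quality control were examined because HSCs keep a low rate of translation. Ribosome biogenesis factors had 75 measured of 76 listed and a median of 0.07. Rrs1 gave 0.82, 4.19 and 3.74, Mrto4 gave 1.12, 2.15 and 1.04, Gtpbp4 gave 0.56, 1.23 and 1.41, and Nop58 gave 0.55, 1.12 and 2.13. All are nucleolar assembly or modification factors. In WT, the Rrs1 signal passed the background mark on 1 of 3 arrays. Against these 11 genes higher on all arrays (14.7%) stood 8 lower (10.7%), both close to the background shares. Npm1 (-0.39, 1.28 and 1.52) and Fbl (-0.60, 1.46 and 1.00) had a low array 1, and the medians of the arrays for this list were -0.12, 0.02 and 0.46.

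Cytosolic ribosomal proteins were all measured and all well above background in both channels of each array. Of the 78 genes, 11 (14.1%) were higher and 6 (7.69%) lower on all arrays. Their mean ratios ran from -0.94 to 1.20 with a median of 0.12. Rps25 gave 0.21, 1.36 and 1.69 and a second probe had a mean of 1.53. Rps26 gave 0.30, 0.77 and 1.44. Rpl39 gave -0.65, -0.34 and -1.24. Mitochondrial ribosomal proteins reached a higher median, 0.38 over 78 genes, but the array medians were -0.09, 0.04 and 0.55. Here 13 genes (16.7%) were higher and 6 lower on all arrays. Mrpl3 (chromosome 9, 104979701 to 104979760, mm9) gave 1.76, 2.24 and 1.91, a mean of 1.97 ± 0.25 (SD, n = 3) or 3.91-fold with an adjusted p of 0.652, and WT signal well above background on 1 array. Its mean was 4.69 with the deposited log ratios. Mrpl11 gave 1.66, 1.13 and 2.88, and Mrpl44 gave 0.08, 3.41 and 3.57.

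Gcn1, a ribosome-bound activator of the kinase Gcn2, had the smallest p of the lower genes (chromosome 5, 116072278 to 116072337, mm9). Its ratios of -2.03, -2.63 and -2.23 gave a mean of -2.30 ± 0.31 (SD, n = 3) and an adjusted p of 0.652. KO levels of 9.46, 8.56 and 8.59 lay below WT levels of 11.49, 11.19 and 10.81, a gap that is no finding in a gene chosen for small p. A second Gcn1 probe (116072604 to 116072663) was also lower on all arrays, at -0.31, -1.37 and -0.90. In MPPs the first probe had a mean of 0.25. Gcn2 itself (Eif2ak4) gave 0.32, -1.12 and 0.96, and its effector Atf4 gave 0.81, 1.02 and -1.38. Farsa, a subunit of phenylalanyl-tRNA synthetase, gave -0.79, -0.83 and -0.95, although its other probes had means of 0.45 and 0.82. The subunits Eif2b1 (1.37, 1.72 and 0.12) and Eif2b5 (0.95, 0.22 and 3.68) of the eIF2 exchange factor were higher on all arrays.

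In the unfolded protein response, Hyou1, a chaperone of the endoplasmic reticulum, gave -1.03, -1.90 and -1.38, and its MPP mean was 1.23. Atf6, a sensor of the response, gave -1.62, -1.86 and 0.10. Selenos, which acts in degradation of misfolded proteins, gave 1.70, 1.60 and 0.44. Hspa5 (BiP), the main target of the response, gave 0.24, 1.16 and 0.18. Over 38 measured genes 4 were higher and 5 lower on all arrays. The median was 0.17 (-0.17, 0.16 and -0.02 by array), and it was -0.11 without array 1 and -0.10 without array 2.

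Psmg3, a chaperone of proteasome assembly, had the smallest SD of the 12 lower genes of smallest p. It gave -1.48, -1.37 and -1.51, a mean of -1.46 ± 0.07 (SD, n = 3), with an adjusted p of 0.652 (chromosome 5, 140299626 to 140299685, mm9). Its 3 MPP ratios were 0.63, 0.98 and 0.72, all of the opposite sign. The proteasome subunits Psmc5 (0.87, 1.53 and 4.21) and Psma1 (0.46, 1.08 and 0.91) were higher on all arrays, and Psma3 gave -0.91, -0.40 and -0.29. Among cytosolic chaperones Hsf2, a heat shock factor, gave 1.89, 0.60 and 1.41, Hspa4 gave -0.56, -0.64 and -0.68 with other probes at means of -0.26 and 0.20, and Hspa1a gave 0.90, -0.11 and -0.17.

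Autophagy genes had a median of 0.41 over 32 genes, with 4 higher and 4 lower on all arrays. The array medians were -0.09, 0.63 and 0.58, and without array 2 the median was 0.15. Atg9a, the lipid scramblase that seeds autophagosomes (chromosome 1, 75184260 to 75184319, mm9), gave 2.40, 3.16 and 1.49, a mean of 2.35 ± 0.83 (SD, n = 3) and an adjusted p of 0.652. Its MPP mean was 0.03. Atg7, required for LC3 conjugation and for HSC maintenance, gave -0.67, -2.84 and -0.93, but its other probe had a mean of 0.04. Atg14 gave 0.33, 1.86 and 0.59, and Pik3c3, the kinase it binds, gave -0.59, -2.49 and -0.18.

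In the respiratory chain, Uqcr10, a small subunit of complex III (chromosome 11, 4604252 to 4604311, mm9), gave -1.13, -2.16 and -2.63, a mean of -1.97 ± 0.77 (SD, n = 3) with an adjusted p of 0.652. The other 2 probes of this gene overlap each other by 53 bases and swung together, at -2.83, 1.83 and -5.61 for the first of them, so they did not repeat the even ratio. Cox6a1, a complex IV subunit, gave -1.45, -2.35 and -2.99. Ndufa11 (0.44, 3.45 and 1.71), Ndufa12 (1.24, 0.46 and 0.90) and Ndufs4 (0.23, 3.41 and 1.80), all of complex I, were higher on all arrays. Over the 76 subunits 13 (17.1%) were higher and 8 (10.5%) lower, with a median of -0.05.

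Genes against oxidants were of interest because Bmi1 loss is known to raise oxidant levels in other tissues. Aldh1a1, an aldehyde dehydrogenase, gave 0.80, 2.04 and 2.09. Gstm1, a glutathione transferase, gave 0.72, 1.60 and 1.05, and its second probe had a mean of 1.47. Gclm, which limits glutathione synthesis, gave 0.43, 2.56 and 3.33, and the mitochondrial Sod2 gave 0.51, 0.82 and 0.86. Cat (0.32, -0.34 and 0.11) and Hmox1 (-0.75, 0.20 and -0.66) lay near equality, and Glrx gave 0.26, -3.81 and -2.66. Of 36 measured genes 6 (16.7%) were higher and 2 (5.56%) lower on all arrays, with a median of 0.06. In glycolysis Ldhb gave 0.48, 1.76 and 2.35 and Ldha -0.10, -0.66 and -0.83, while Hk2 gave 0.68, 0.31 and -2.48.

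Cell cycle genes separated array 3 from the others. Of 44 measured G2 and M phase genes, 15 had a positive ratio on array 1, 20 on array 2 and 33 on array 3, with array medians of -0.38, -0.21 and 0.70. Mki67 gave -0.46, -0.20 and 1.34, and Top2a gave -0.262, -2.995 and 2.804. The list's median was 0.13, and it was -0.25 without array 3. S phase genes had array medians of -0.03, -0.02 and 0.51. Cdt1, which licenses replication origins, gave 0.83, 3.63 and 4.29 and Prim1, a primase subunit, gave 1.24, 3.98 and 1.46. Chaf1a, of the chromatin assembly factor, gave -0.25, 2.94 and 3.83. Mcm2 gave 0.40, 1.18 and -0.17, and Pcna (0.49, -0.05 and -0.03) stayed near equality. Of 46 measured S phase genes 8 (17.4%) were higher and 5 (10.9%) lower on all arrays.

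Among signalling genes, Hey1, a target of Notch, gave 1.68, 3.98 and 3.48, with WT signal well above background on 2 of 3 arrays. Hes1, the other classical target, gave 2.63, -0.09 and 0.41, and Rbpj, the nuclear effector, gave -0.64, 1.94 and 2.40. In the Wnt pathway, the receptor Fzd9 gave 2.22, 3.44 and 3.31 and an MPP mean of -1.55. Fzd7 gave 0.74, 1.70 and 1.27, by the mean 2.36-fold higher in KO. Its WT signal was below the background mark on all arrays, and its other probe had a mean of 1.17. Axin2, the common readout of Wnt signalling, gave 0.09, 0.46 and -0.11. Of 26 measured Wnt genes only Fzd9 and Fzd7 (7.69%) were higher on all arrays, and Lrp5, Dvl3 and Dkk1 (11.5%) were lower.

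TGF-beta signalling, which keeps HSCs quiescent, had 6 of 25 genes higher and 6 lower on all arrays (24% each). The receptor Tgfbr2 gave 0.17, 1.38 and 0.59, with another probe at a mean of 1.00, and Tgfbr1 gave 0.72, 2.20 and 0.18, with other probes at means of 0.37, 0.78 and 0.71. Smad3 gave 1.34, 1.04 and 0.68, although its other probe had a mean of -0.08. The corepressor Ski gave -1.10, -3.80 and -2.83. For both receptors every probe mean was positive.

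Of 34 cytokine receptor and Jak-Stat genes, 6 (17.6%) were higher and 4 (11.8%) lower on all arrays, against 13.3% and 13.6% of features. Some members had even ratios. Ifngr1, the interferon gamma receptor, gave 1.55, 1.82 and 1.33, and Il6ra gave 1.14, 1.07 and 1.72. Socs4 gave -1.31, -0.93 and -1.35, Tyk2, a Janus kinase, gave -0.75, -5.30 and -2.51, and the phosphatase Ptpn6 gave -1.88, -0.67 and -0.54. Jak2 (0.35, 0.02 and -0.09) lay at equality. Interferon response genes had both signs. Isg15 gave 0.73, 0.81 and 0.90 with its other probe at 0.44, and Ifit2 gave -0.51, -1.36 and -1.41. Over 34 interferon genes 3 were higher and 5 lower on all arrays. In the Bcl2 family Bak1, a pore-forming death protein, gave -1.50, -3.05 and -1.45, and Bcl2 gave 0.08, -2.09 and 0.33.

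**Figure D4:**
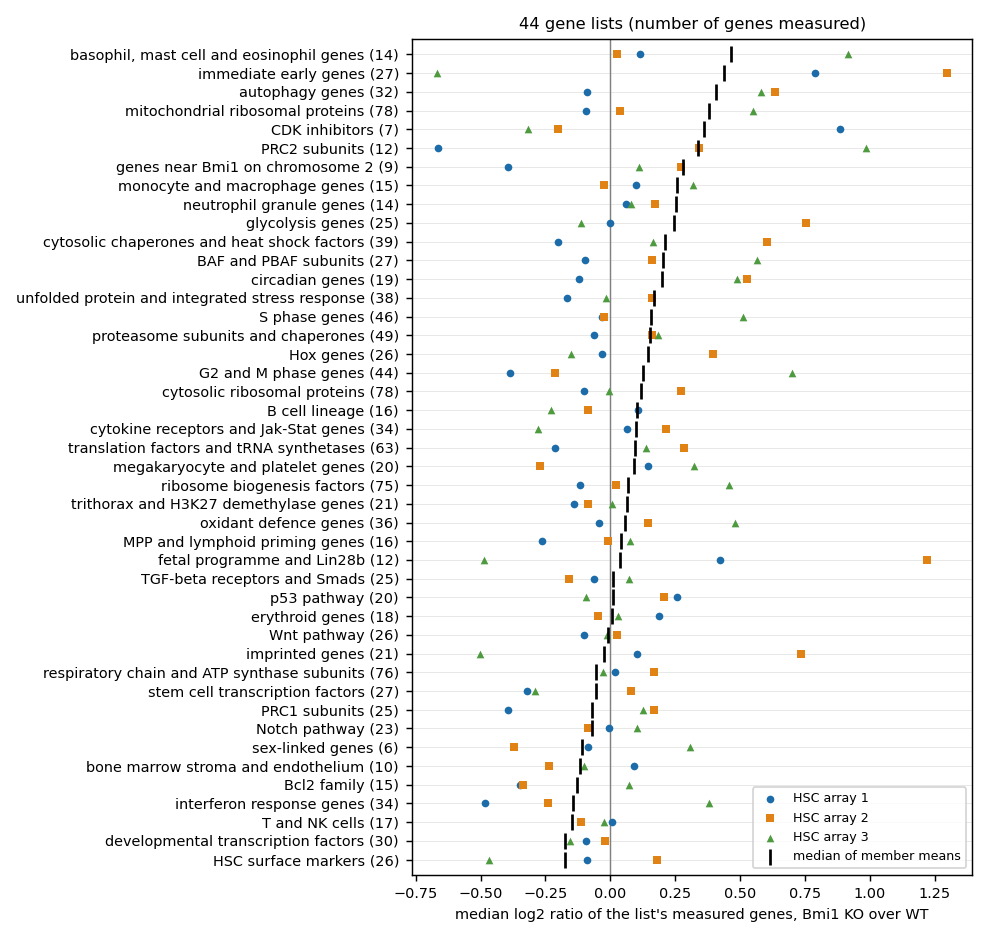
Median log2 ratio of KO over WT of the measured genes of each of the 44 lists, with a point per HSC array and a black bar at the median of the genes' mean ratios. The number of measured genes is in brackets. For most lists the arrays lie on both sides of 0, and the widest separation is that of the immediate early genes (0.79, 1.30 and -0.67).

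The features with the smallest p and the same sign on all arrays were taken 12 each way. Beside Phf10, Zdbf2, Mrpl3, Npas2 and Atg9a, the higher genes included Slc25a41, Vopp1, Spag16, Mtmr14, Dusp18 and Chml. Vopp1 had the highest mean of these, with 2.14, 4.94 and 3.48, a mean of 3.52 ± 1.40 (SD, n = 3). Slc25a41, a mitochondrial carrier, gave 1.49, 1.73 and 2.15. Dusp18, a phosphatase, gave 2.66, 2.30 and 2.74, but a second Dusp18 probe gave 0.67, 0.00 and -1.73. Mtmr14, a phosphoinositide phosphatase, gave 1.37, 1.65 and 1.39, with a second probe at 1.13, -3.32 and -0.53. For both genes the probes disagree on the direction of the mean. The mean ratios of the 12 in MPPs ran from -0.55 for Phf10 to 1.03 for Dusp18.

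Beside Gcn1, Psmg3 and Uqcr10, the lower genes included Stxbp5, Pea15a, Gucy1b1, Casp2, Pgr, Kpnb1, Cyrib and Polr2l. Cyrib, an inhibitor of Rac1 signalling, gave -2.26, -3.29 and -2.44, a mean of -2.67 ± 0.55 (SD, n = 3). Casp2, an initiator caspase that acts after DNA damage, gave -1.84, -2.08 and -2.78. Kpnb1, which encodes importin beta, gave -1.21, -2.83 and -2.57, and Gucy1b1, a subunit of the nitric oxide receptor, gave -1.89, -1.98 and -2.54. Polr2l, a subunit shared by the RNA polymerases, gave -1.36, -1.20 and -1.63, with a second probe at -0.17, -1.75 and 0.50. For Stxbp5 the KO signal passed the background mark on 1 of 3 arrays. The MPP means ran from -0.83 for Pea15a to 0.77 for Psmg3. Among these genes, Phf10 had an adjusted p of 0.570 and all others named had 0.652.

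**Figure D5:**
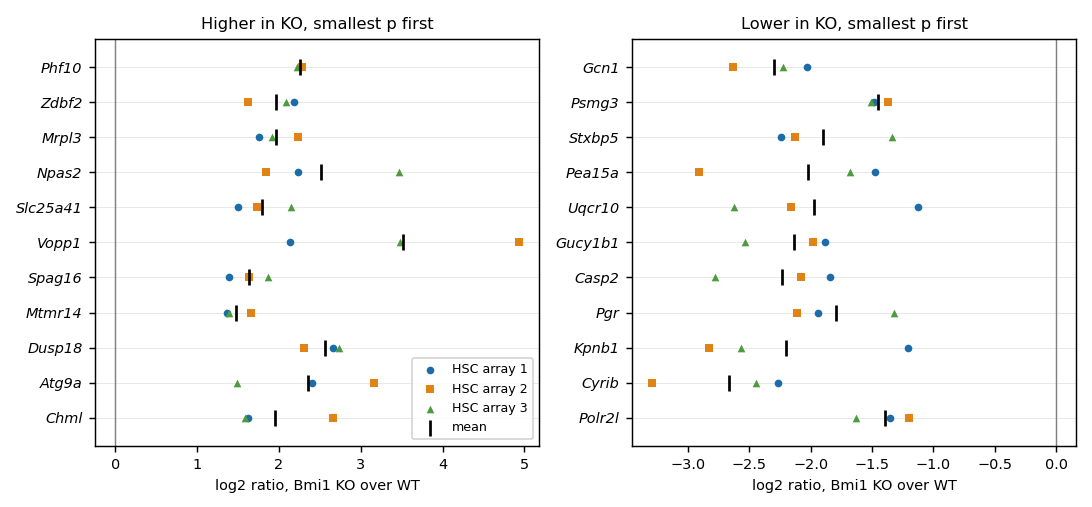
Log2 ratios of KO over WT for 11 of the 12 higher and 11 of the 12 lower genes of smallest p with the same sign on all 3 HSC arrays, from top to bottom in order of p. Points are the arrays and black bars the means. The points of Phf10 (2.26, 2.28 and 2.23) and Psmg3 (-1.48, -1.37 and -1.51) coincide almost fully, while Vopp1 spans 2.14 to 4.94. The genes were chosen for equal signs and small p, so their evenness is no finding.

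Genes whose every probe repeated the sign on every array were few. Of 8789 genes with at least 2 kept probes, 169 (1.92%) were higher and 157 (1.79%) lower with every probe on all 3 arrays. Among those with the largest mean of the weaker probe, Atp13a1, an ATPase of the endoplasmic reticulum (chromosome 8, 72331426 to 72331485, mm9), gave 1.29, 1.20 and 1.74. Its second probe, which shares no bases, gave 1.07, 1.88 and 2.95. Ints11, the catalytic subunit of the Integrator complex (chromosome 4, 155262735 to 155262794, mm9), gave -1.33, -1.41 and -0.67, and its second probe, sharing no bases, gave -1.67, -1.22 and -1.48. For both, 2 separate stretches of the transcript gave ratios of the same sign, and the first probe had an adjusted p of 0.652 in limma. The genes were chosen for this equal sign, so it is no finding. The sizes differed most on array 3 for Atp13a1. Spryd7 gave -1.46, -2.77 and -1.70, and its second probe gave -1.48, -0.75 and -2.41. Pick1, a scaffold protein of membrane traffic, gave -2.02, -1.98 and -0.57, and its second probe gave -0.26, -4.69 and -3.49. Mkrn1, Tbcel, Tmem154 and Mrpl15 among the higher genes and Trim13, Kcnj13, Pycrl and Rogdi among the lower also had probes with no shared bases. The probes of Hilpda, Gmppa, Mff, Dctn6, Dcp1b and Cd72 overlap each other, by 23 to 51 bases, so they are not separate measurements.

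The KO effect in HSCs was compared with that in MPPs in the same fit. Of 29135 features 0 (0%) differed at an adjusted p under 0.05 in limma, and 1177 (4.04%) did at an unadjusted p under 0.05. For 2360 features (8.1%) the 3 HSC ratios did not overlap the 3 MPP ratios. Among the 47 genes named for Bmi1 and its targets, for small p or for probes of equal sign, the HSC minus MPP difference was largest for Vopp1, 3.36, followed by Cyrib at -3.05, Vldlr at 2.83 and Phf10 at 2.81, each with an adjusted p of 0.964. None of the ratios given above is thereby shown to be particular to HSCs.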

How the data were processed

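RNA of Bmi1 KO (Cy5) and WT (Cy3) cells was hybridised to 2-colour Agilent arrays, 3 with HSCs and 3 with MPPs. Spot intensities and local backgrounds were read with Agilent Feature Extraction 10.7.3.1, per the file headers (the submitters' processing notes name 8.5.1.1). The deposited log10 ratios of processed red over green were made by that software. The series table holds the same values (largest difference 0) with a column median of 0, and both served only as an alternative. The other columns used are the software's marks for spots above background, saturated or non-uniform, per the file headers.

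Mean intensities were background-corrected (normexp, offset 50) and loess-normalized within each array in limma 3.58.1 (R 4.3.3). Control and outlier-marked spots were given weight 0 and left out. Of 55681 probes, 44642 passed, being well above background on all 3 arrays of at least 1 population and channel. The brightest probe stood for a gene, giving 29135 features. Of the probes, 48.9% took a current symbol through RefSeq (GRCm38.p6), and others kept the file's name. Positions are mm9 as in the files. Exon and UTR annotation was not analysed here. Channel levels followed Aquantile normalization. Array number limits the precision.

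lmFit and eBayes were fitted on all 6 arrays with a mean per population, adjusted by Benjamini-Hochberg at 0.05. HSC minus MPP was tested in that fit. The genes named with p-values are Bmi1, Cdkn2a and Cdkn2b, the 12 higher and 12 lower features of smallest p with the same sign on all 3 arrays, and the 10 genes each way, with at least 2 probes, whose every probe had the same sign on all arrays and whose weaker probe had the largest mean. The 12562 features with accession, predicted or clone names were counted but not named. Other named genes are members of 44 lists. By the plan, these were key members of each list and others with the smallest p in these data. Even ratios among them are thus no finding. For immediate early genes and PRC1 subunits every measured member could be given. The members and lists were chosen with earlier results of these data known. Scripts were tested on simulated data. A few measured genes are counted in the totals but not reported here by name.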

Additional observations from a re-analysis of the deposited data

How the results depend on the processing

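No feature passed the adjusted threshold for KO over WT in limma under any of the 18 alternatives, with smallest adjusted p from 0.113 (median centring) to 0.917 (array weights). The HSC minus MPP difference also had 0 passing features wherever it could be fitted, which excludes the fit of HSC arrays alone. The 2156 features at an unadjusted p under 0.05 became 4880 with median centring in place of loess, which moved the median of all features to 0.29 and the share of higher calls from 53.4% to 89.8%. They became 1309 with HSC arrays alone and 1415 with array quality weights. Leaving out an array in turn gave 1624 (without HSC 2) to 3806 (without HSC 1). Same-numbered HSC and MPP arrays had r = -0.0659, 0.00898 and 0.0151 between their ratios. The HSC arrays hardly correlated with each other either, so these values cannot show whether same-numbered arrays share mice. With replicate number as a block, limma gave 0 passing features and 2037 at an unadjusted p under 0.05. Of 834 values of named genes under the alternatives, 1 changed sign: Cdkn2b was -0.26 without HSC 1, and its leave-one-out values ran from -0.26 to 1.34. By over 1.5 times 28 of these values moved, 10 of them with the deposited log ratios and 12 without an HSC array. The deposited log ratios took Mrpl3 from 1.97 to 4.69, Dusp18 from 2.57 to 4.75, Stxbp5 from -1.90 to -4.79 and Gucy1b1 from -2.14 to -4.27. The mean of all probes took Mtmr14 from 1.47 to 0.28, Dusp18 to 1.11 and Bmi1 from -1.11 to -0.58. Of 792 list medians 55 moved by more than the spread between arrays, 29 of them with median centring. That setting raised all 44 medians and made 12 of the 13 negative ones positive, with cytosolic ribosomal proteins from 0.12 to 1.17 and HSC surface markers from -0.17 to 0.36. The causes were not tested. The dyes were not exchanged. WT signal of Cdkn2b, Cdkn2c and Fzd7 was below the background mark on all HSC arrays.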
